A study of Mus musculus with 4 samples.

Results

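Transcripts of 10 genes of the canonical NF-kB pathway were followed across splenic monocytes of mice with and without the microRNA miR-146a. The genes, chosen with earlier results of these data known, were Nfkb1, Rela, Rel, Nfkbia, Nfkbie, Nfkbiz, Bcl3, Tnfaip3, Tnip1 and Zc3h12a, and all probe sets annotated to one of them alone were taken. Of the 10, 9 had probe sets, 18 in all, among 18194 genes represented on the array. Nfkb1 had none in the annotation used and was not analysed here. Of the 18 probe sets, 17 were called Present on all 4 arrays, and each of the 9 genes was Present on all 4.

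The study had 4 arrays, 1 for each pairing of genotype (WT or KO) with monocyte subset (Ly6Chigh or Ly6Clow). WT were control littermates with the strain label C57BL/6, and KO were miR-146a-/- mice of strain B6(FVB)-Mir146tm1.1Bal/J, which lack the microRNA in every cell and not only in monocytes. No stimulus is named for any group, and the age and sex of the mice are not given in the sources used here. Each array carried RNA pooled from several mice, so the spread between mice was not measured and no pairwise difference below has an error or a p-value. CD11b-positive spleen cells were selected on beads and sorted by Ly6C. The protocol names RBC and ACT lysis buffers "respectively" for WT and miR-146a-/- spleens. Read that way, the buffer and the genotype cannot be told apart.

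NF-kB is a family of dimeric transcription factors. Rela, Rel and the p50 product of Nfkb1 are its canonical subunits, and in resting cells they are held in the cytoplasm by the inhibitors IkB alpha (Nfkbia) and IkB epsilon (Nfkbie). Signals from Toll-like and cytokine receptors destroy these inhibitors, and the freed dimers switch on inflammatory genes together with genes that end the response. Among the latter are the inhibitors themselves, the ubiquitin-editing enzyme A20 (Tnfaip3), its partner ABIN-1 (Tnip1) and the ribonuclease Regnase-1 (Zc3h12a), which degrades cytokine messages. Nfkbiz and Bcl3 encode nuclear IkB proteins, which are not only inhibitors and can help switch genes on. miR-146a is itself induced by NF-kB and is known for repressing Traf6 and Irak1 upstream of it.

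The deleted microRNA shares its seed with miR-146b, which is encoded on another chromosome and is not named in the genotype of the mice. The mature sequences (RefSeq, GRCm38.p6) are shown because the seed pairs with target messages, and capitals mark the seed, bases 2 to 8.
mmu-miR-146a-5p (chr11:43374435-43374456, minus strand): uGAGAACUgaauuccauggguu
mmu-miR-146b-5p (chr19:46342790-46342811, plus strand): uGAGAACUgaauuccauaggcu
The 2 sequences, of 22 bases each, differed at 2 bases, both outside the seed. Neither microRNA was measured here.

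The promoters of 6 of the 10 genes hold a match to the kB consensus, the DNA sequence NF-kB dimers bind, near the start of transcription. Genes known to be induced by NF-kB were among those chosen, so these matches are not independent of the choice. RefSeq promoter windows (GRCm38.p6) reach from 250 bases before a gene's start to 50 after it, and 8 of the 10 genes had one. These windows were searched on both strands for the textbook kB consensus, which is 10 bases long. Windows of 6 of the 8 genes held a match (Rel, Nfkbia, Nfkbie, Bcl3, Tnfaip3 and Tnip1), against 5.14% of the 27025 genes with a window. Rela and Zc3h12a had no match in these letters, and Nfkb1 and Nfkbiz had no window. Matches to a consensus are descriptions and not measured binding sites. The parts before the start are shown for the A20 gene Tnfaip3 and its partner Tnip1, for 1 inhibitor and for 1 subunit, with kB matches in capitals. For Tnip1 the stretch stops short of the window's start site, at the annotated bound of the gene.
Tnip1 (chr11:54962957-54963190, minus strand): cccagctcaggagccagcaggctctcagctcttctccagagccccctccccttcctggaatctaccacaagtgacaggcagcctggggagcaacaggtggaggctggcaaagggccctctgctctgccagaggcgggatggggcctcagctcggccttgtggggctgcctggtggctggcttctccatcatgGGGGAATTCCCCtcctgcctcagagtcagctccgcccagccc
Nfkbia (chr12:55492648-55492897, minus strand): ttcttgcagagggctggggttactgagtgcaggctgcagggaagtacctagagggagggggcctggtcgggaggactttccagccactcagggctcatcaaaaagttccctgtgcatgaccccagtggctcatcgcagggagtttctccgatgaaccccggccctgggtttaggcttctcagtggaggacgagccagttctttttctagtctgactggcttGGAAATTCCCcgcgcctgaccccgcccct
Tnfaip3 (chr10:19015411-19015660, minus strand): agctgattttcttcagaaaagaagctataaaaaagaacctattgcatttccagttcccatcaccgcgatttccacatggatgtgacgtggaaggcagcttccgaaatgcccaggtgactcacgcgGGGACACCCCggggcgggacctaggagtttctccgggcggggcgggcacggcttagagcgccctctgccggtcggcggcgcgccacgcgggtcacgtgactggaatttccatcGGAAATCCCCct
Rel (chr11:23770970-23771219, minus strand): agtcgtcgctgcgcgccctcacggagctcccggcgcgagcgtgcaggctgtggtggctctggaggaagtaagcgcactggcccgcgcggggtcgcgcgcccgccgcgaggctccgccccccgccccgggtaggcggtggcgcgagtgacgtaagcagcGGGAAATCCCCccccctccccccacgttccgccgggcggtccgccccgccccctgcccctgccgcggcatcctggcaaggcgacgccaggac
In Tnip1, 3 overlapping matches lay at bases -58 to -47 counted from the start. The match of Nfkbia lay at -29 to -20 and those of Tnfaip3 at -125 to -116 and at -12 to -3. Rel had 2 overlapping matches at -92 to -82, and Nfkbie had 1 at -106 to -97. The match of Bcl3 lay just after the start, at bases 3 to 12.

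Signals below are the authors' linear array intensities. They can be compared between arrays for 1 probe set but not between genes, and a gene is represented by its probe set with the highest mean. A gene was called when its 2 signals differed at least 2-fold, the brighter was at least 100 and its probe set was Present there. The trimmed mean signal was 150.0 on each array, and 46.8% to 48.6% of probe sets were Present. Markers of the sort separated the arrays as labelled. Sums over marker genes, here and below, are weighted toward the brightest probe sets and are compared only between arrays. The summed signal of 7 Ly6Chigh marker genes was 29315.4 and 27432.7 on the Ly6Chigh arrays (WT, then KO) and 3211.4 and 1458.0 on the Ly6Clow arrays. That of 10 Ly6Clow markers was 11007.8 and 9210.3 against 42435.7 and 40034.9. The genotype was not checked at the deleted gene.

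**Figure D1:**
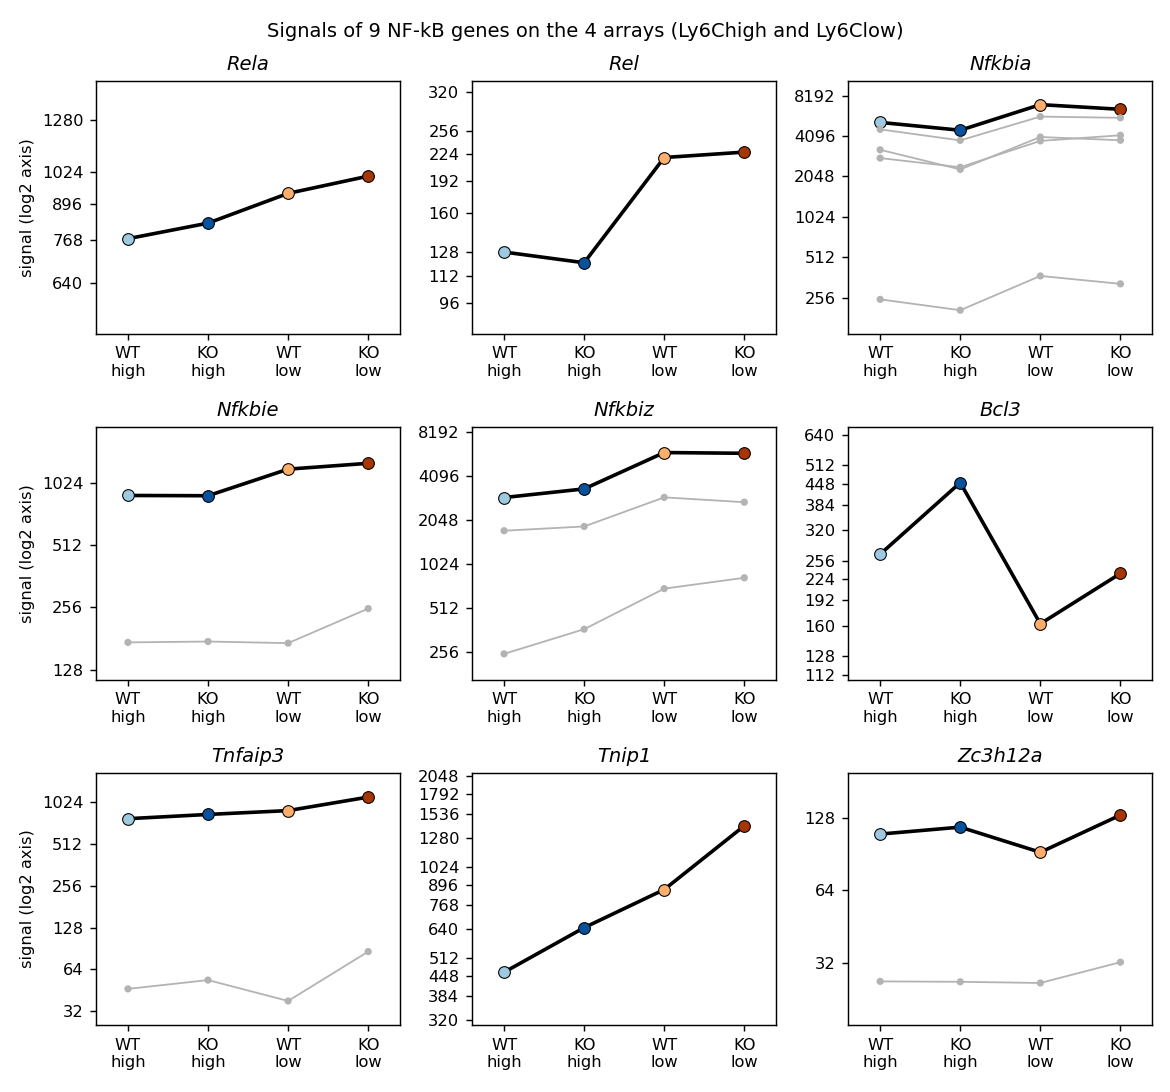
Signal of each NF-kB gene on the 4 arrays, on log2 axes that differ between panels and do not start at 0. Black lines with coloured points are the probe set that represents the gene and grey lines its other probe sets. Tnip1 is lowest in WT Ly6Chigh (459.8) and highest in KO Ly6Clow (1404.9), and Bcl3 runs the other way between the subsets.

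Of the 9 genes, Tnip1 and Bcl3 had the largest KO ratios in both subsets, each higher in KO than in WT by 1.40-fold to 1.68-fold. Neither reached 2-fold, and 0 of the 9 were called in either subset, where the rule called 0.269% of 10402 measured genes in Ly6Chigh (0.163% higher and 0.106% lower in KO) and 0.196% of 10191 in Ly6Clow (0.128% and 0.0687%). At 1.5-fold it took in 1 of the 9 in each subset, Bcl3 in Ly6Chigh and Tnip1 in Ly6Clow. It then called 2.52% of all genes in Ly6Chigh (1.39% higher and 1.12% lower) and 1.28% in Ly6Clow (0.687% and 0.589%). The median log2 ratio of the 9 was 0.10 in Ly6Chigh and 0.11 in Ly6Clow, against -0.012 and -0.025 over all measured genes. KO exceeded WT for 6 of 9 in Ly6Chigh and for 7 of 9 in Ly6Clow. The same 5 genes (Rela, Bcl3, Tnfaip3, Tnip1 and Zc3h12a) were higher in both, a pattern shown by 26.4% of the 11099 genes Present on at least 1 array. The KO and WT arrays of a subset come from different pools of mice, and 1 pool a group cannot separate genotype from pool.

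Tnip1 encodes ABIN-1, which binds ubiquitin chains and brings A20 to its substrates. Its signal was 459.8 in WT Ly6Chigh, 646.0 in KO Ly6Chigh, 864.1 in WT Ly6Clow and 1404.9 in KO Ly6Clow. KO exceeded WT within each subset, and Ly6Clow exceeded Ly6Chigh in each genotype. The log2 ratio of KO over WT was 0.49 (1.40-fold) in Ly6Chigh and 0.70 (1.63-fold) in Ly6Clow. The second of these was larger in size than the ratio of 98.9% of the 6931 measured genes with a signal of at least 100, and the first than that of 93.4% of 7050. Tnip1 has 1 probe set, so no second probe set could be set beside it. The gene lies on chromosome 11, as does the deleted microRNA. The part of strain DNA near the deletion in its KO ratios was not tested.

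Bcl3 encodes a nuclear IkB protein that binds p50 or p52 dimers at their DNA sites and can act as a co-activator or a repressor. Its signal was 268.6 in WT Ly6Chigh, 451.8 in KO Ly6Chigh, 162.0 in WT Ly6Clow and 233.5 in KO Ly6Clow. It was higher in KO in each subset, and the KO Ly6Clow signal stayed under that of WT Ly6Chigh. The log2 ratio of KO over WT was 0.75 (1.68-fold) in Ly6Chigh and 0.53 (1.44-fold) in Ly6Clow, larger in size than that of 98.4% and 97.4% of the measured genes with such a signal. Bcl3 also has 1 probe set.

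With limma, additive terms for genotype and subset were fitted to all 11099 genes, with the subsets standing in for replicates of each genotype. The fit leaves 1 residual degree of freedom, the difference of the KO ratios between the subsets. Its SEs and p-values therefore do not measure the spread between mice or pools. The limma fit gave 0 genes past an adjusted p of 0.05 for genotype, against 700 (6.31%) at an unadjusted p under 0.05. Its genotype coefficients on the log2 scale were 0.64 for Bcl3 (SE 0.133) and 0.60 for Tnip1 (SE 0.132), each with a limma adjusted p of 0.742. Both genes passed with an offset of 32 added to the signals (limma adjusted p of 0.0285 and 0.0274) and with a signal-dependent variance prior (0.000734 and 1.85e-05), fits that called 106 and 287 genes in all. Neither passed with quantile normalization (limma adjusted p of 0.724 for each), with probe sets averaged (0.788 and 0.789) or among genes Present on all 4 arrays (0.237 and 0.263).

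Tnfaip3, the gene of the deubiquitinase A20, had signals of 779.2 in WT Ly6Chigh, 835.9 in KO Ly6Chigh, 891.0 in WT Ly6Clow and 1114.4 in KO Ly6Clow. KO Ly6Clow was the highest array, and the other 3 lay closer together. The log2 ratio of KO over WT was 0.10 in Ly6Chigh and 0.32 in Ly6Clow. A second, dim probe set of the gene read 46.4, 53.7, 38.0 and 86.1 in the same order. It was likewise highest in KO Ly6Clow, with log2 ratios of 0.21 and 1.18. Its signals lay under the minimum of 100. The mean of both probe sets gave 0.75 in Ly6Clow.

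Zc3h12a had signals of 109.5 in WT Ly6Chigh, 117.0 in KO Ly6Chigh, 92.0 in WT Ly6Clow and 131.3 in KO Ly6Clow. Both KO arrays lay above both WT arrays, as for 10% of all 11099 genes, and it was the 1 gene of the 9 in which they did. The log2 ratio was 0.10 in Ly6Chigh and 0.51 in Ly6Clow, and their difference of 0.42 was the largest among the 9. The gene lay close to the signal minimum. Its second probe set, between 26.4 and 32.2 on all arrays, gave -0.005 and 0.29.

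Nfkbia, whose IkB alpha is the fastest of the inhibitors to be rebuilt after NF-kB activation, was the 1 gene of the 9 lower in KO in both subsets. That pattern was shown by 31.5% of all genes. Its signal was 5186.5 in WT Ly6Chigh, 4532.7 in KO Ly6Chigh, 7038.1 in WT Ly6Clow and 6495.6 in KO Ly6Clow. The log2 ratio of KO over WT was -0.19 in Ly6Chigh and -0.12 in Ly6Clow. In Ly6Chigh all 5 of its probe sets read lower in KO, from -0.49 to -0.19. In Ly6Clow they ranged from -0.20 to 0.14, with 1 above 0. Probe sets of a gene share the same RNA and are no replicates.

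The subunits were close between genotypes. Rela, whose p65 carries a strong activation domain, read 771.9 in WT Ly6Chigh, 824.9 in KO Ly6Chigh, 936.4 in WT Ly6Clow and 1007.7 in KO Ly6Clow, with log2 ratios of 0.10 and 0.11. Rel, the c-Rel subunit prominent in lymphocytes and myeloid cells, read 128.3, 120.7, 220.0 and 226.9 in the same order, with ratios of -0.09 and 0.04. Nfkbie read 888.4, 885.8, 1190.3 and 1270.1, with ratios of -0.004 and 0.09. A dimmer probe set of Nfkbie gave 0.01 in Ly6Chigh and 0.55 in Ly6Clow. Nfkbiz, the nuclear protein IkB zeta needed for a second wave of response genes such as Il6, read 2913.5, 3338.3, 5918.4 and 5851.7. Its ratios of KO over WT were 0.20 and -0.02, and its 2 other probe sets gave 0.10 and 0.56 in Ly6Chigh and -0.11 and 0.25 in Ly6Clow.

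**Figure D2:**
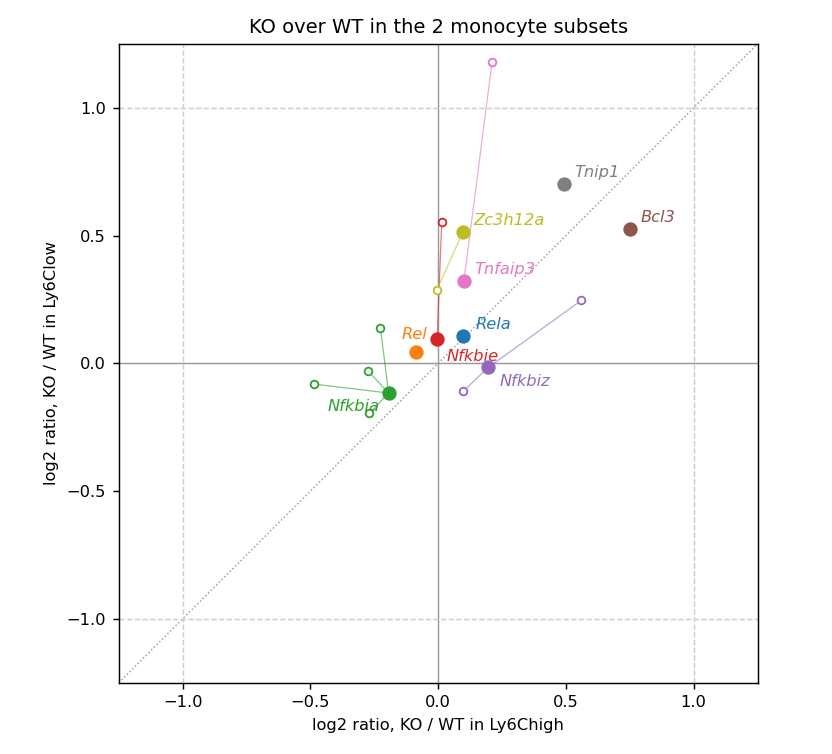
Log2 ratio of KO over WT in Ly6Chigh (x axis) and in Ly6Clow (y axis) for each NF-kB gene. Filled points are the representing probe sets, open points the other probe sets of the same gene joined to them, dashed lines 2-fold and the dotted line equal ratios. Tnip1 (0.49 and 0.70) and Bcl3 (0.75 and 0.53) lie apart from 0 on both axes.

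The authors' deposited change calls took in smaller differences. Calls of genes are those of the representing probe set. In Ly6Chigh the authors' deposited table called Bcl3 and Tnip1 increased and Nfkbia decreased, with authors' folds of 1.87, 1.15 and -1.15. In Ly6Clow the authors' deposited table called Tnip1, Bcl3 and Tnfaip3 increased, with authors' folds of 1.62, 1.41 and 1.23. The dim probe set of Tnfaip3 was called increased there as well, with an authors' fold of 2.14. Among all genes measured the authors' deposited table called 7.59% increased and 7.83% decreased in Ly6Chigh, and 2.36% and 3.84% in Ly6Clow. The authors' folds are their own estimates and differ from the ratios of the deposited signals.

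Between the subsets the direction was more uniform. In both genotypes 7 of the 9 genes (Rela, Rel, Nfkbia, Nfkbie, Nfkbiz, Tnfaip3 and Tnip1) were higher in Ly6Clow than in Ly6Chigh monocytes, and for all 7 both Ly6Clow arrays lay above both Ly6Chigh arrays. Bcl3 was the reverse, with both Ly6Clow arrays below. Over all 11099 genes, 38.5% were higher in Ly6Clow in both genotypes and 38.3% lower, and the arrays were fully separated for 32.6% and 32.7%. The median log2 ratio of Ly6Clow over Ly6Chigh in the 9 genes was 0.42 in WT and 0.52 in KO, against 0.009 and -0.012 over all measured genes. The rule called Nfkbiz in WT and Tnip1 in KO, 1 of 9 genes each, and it called 8.65% of all genes in WT (3.65% higher and 4.99% lower in Ly6Clow) and 8.78% in KO (3.69% and 5.09%).

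**Figure D3:**
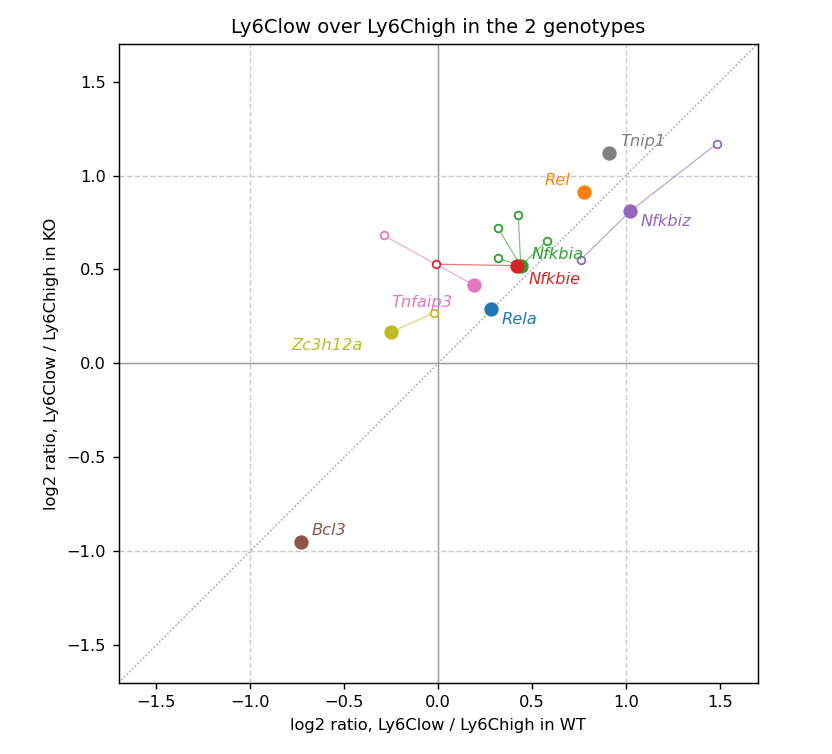
Log2 ratio of Ly6Clow over Ly6Chigh in WT (x axis) and in KO (y axis) for each NF-kB gene, with points and lines as in the plot of KO ratios. Of the filled points, 7 lie above 0 on both axes and Bcl3 (-0.73 and -0.95) below 0 on both.

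Nfkbiz was 2.03-fold higher in Ly6Clow in WT (log2 1.02) and 1.75-fold in KO (0.81). Its 3 probe sets read from 0.76 to 1.48 in WT and from 0.55 to 1.17 in KO. The WT ratio sat just inside the 2-fold rule and fell to 0.97 with quantile normalization, which ended the call. Tnip1 was 1.88-fold higher in WT (0.91), just outside the rule, and 2.17-fold in KO (1.12). Rel was 1.71-fold higher in WT (0.78) and 1.88-fold in KO (0.91). Bcl3 was lower by 1.66-fold in WT (-0.73) and by 1.93-fold in KO (-0.95).

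The remaining genes differed less. Nfkbia was higher in Ly6Clow by 0.44 on the log2 scale in WT and 0.52 in KO, and its 5 probe sets all lay above 0, from 0.32 to 0.58 in WT and from 0.52 to 0.79 in KO. Nfkbie gave 0.42 and 0.52, although its dimmer probe set gave -0.01 in WT. Rela gave 0.28 and 0.29. Tnfaip3 gave 0.19 and 0.42, and its dim probe set -0.29 and 0.68, so the direction in WT differed between its probe sets. Zc3h12a gave -0.25 in WT and 0.17 in KO. At 1.5-fold the rule took in Rel, Nfkbiz, Tnip1 and Bcl3 in both genotypes, 4 of 9 genes. It then called 19.7% of all genes in WT (8.94% higher and 10.7% lower) and 18.8% in KO (8.29% and 10.5%).

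In the limma additive model the subset coefficient was 1.02 for Tnip1 (SE 0.132), 0.92 for Nfkbiz (SE 0.132), 0.84 for Rel (SE 0.122) and -0.84 for Bcl3 (SE 0.133). Their limma adjusted p-values were 0.0558, 0.0615, 0.0621 and 0.0688, so none of the 4 passed 0.05. Nfkbia (0.48) and Nfkbie (0.47) had limma adjusted p-values of 0.11 and 0.113, and the other 3 genes ranged from 0.207 to 0.875. The model called 786 of 11099 genes for subset (7.08%), and 3883 (35%) lay at an unadjusted p under 0.05. Limited to the 8590 genes Present on all 4 arrays, limma called 39.0% of them and 6 of the 9 (Rel, Nfkbia, Nfkbie, Nfkbiz, Bcl3 and Tnip1). It called 6 of the 9 with the offset, where 38.9% of all genes passed, and 8 with the variance trend, where 41.4% did. It called 0 of the 9 with quantile normalization (5.58% of all genes) and 0 with probe sets averaged (0 genes in all).

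The authors' deposited table called 4 of the 9 genes increased in Ly6Clow over Ly6Chigh in WT (Rel, Nfkbia, Nfkbiz and Tnip1) and 6 in KO, where Nfkbie and Tnfaip3 joined them. It called Bcl3 decreased in both genotypes. These too are calls of the representing probe sets. The dim probe set of Tnfaip3 was called decreased in WT (authors' fold of -1.52) and unchanged in KO. The authors' deposited table called 18.6% of all measured genes increased and 21.7% decreased in WT, and 16.3% and 21.8% in KO.

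Transcripts of other cells varied with the same arrays. In bulk RNA, fewer cells of a type and less RNA per cell cannot be told apart. Rel is abundant in B cells, and the summed signal of 7 B cell markers was 365.1 and 243.5 on the Ly6Chigh arrays (WT, then KO) and 1267.3 and 1004.7 on the Ly6Clow arrays. Of these, 3 or 4 were Present on each array, and Pax5, Blk and Ebf1 on none. In Ly6Clow, Ms4a1 read 399.7 in WT and 184.4 in KO, while Cd22, the 1 of 4 measured that was higher in KO, read 481.9 and 551.1. The summed signal of 5 platelet markers was 314.5 in WT Ly6Chigh, 373.4 in KO Ly6Chigh, 453.5 in WT Ly6Clow and 735.4 in KO Ly6Clow, with 3, 4, 3 and 5 Present. These sums had the order of the Tnip1 signals, an order that Rela and Tnfaip3 shared. Ppbp kept that order (58.8, 93.7, 97.9 and 267.9). Gp9 and Gp1bb also ran in that order, but Gp9 was Present only in KO Ly6Clow and Gp1bb only on the KO arrays. Pf4 was lowest in KO Ly6Chigh (168.5) and Itga2b highest in WT Ly6Clow (106.2). The summed signal of 9 neutrophil markers was 3778.5 in WT and 2412.2 in KO on the Ly6Chigh arrays, where Bcl3 was highest, and 1958.6 and 1569.9 on the Ly6Clow arrays. Of these, 4 or 5 were Present on each array, and Cxcr2, Ltf, Camp and Ngp on none. The neutrophil markers did not move together. In Ly6Chigh, S100a8 read 1823.4 in WT and 796.5 in KO, while Csf3r, the 1 of 5 measured that was higher in KO, read 1001.8 and 1129.0. In Ly6Clow, 3 of 5 measured were higher in KO. Dendritic cell markers (7 genes) summed to 761.3, 721.7, 160.9 and 177.6 in WT Ly6Chigh, KO Ly6Chigh, WT Ly6Clow and KO Ly6Clow. Red pulp macrophage markers (7 genes) summed to 2565.2, 2817.4, 3248.5 and 3499.3 on the arrays as just listed, with Vcam1 Present on no array. Like the platelet sums, the macrophage sums rose in the order of the Tnip1 signals. Adgre1 alone gave 2031.0, 2279.8, 2793.9 and 3037.9 of these sums, while Axl read 219.1 and 169.8 in Ly6Chigh and 23.2 in both Ly6Clow arrays. T cell markers were Present on no array (0 of 6). NK cell markers summed to 45.4 to 88.1 and erythroid markers to 72.3 to 209.1, with at most 1 Present. The part of these transcripts in the NF-kB genes' signals was not tested.

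Other genes of the pathway were set beside the 9. For KO over WT the rule called 0 of 7 other Rel and IkB family genes, 0 of 20 upstream activators and 0 of 17 other negative regulators in either subset, and it called only 0.269% and 0.196% of all genes. The median log2 ratios of the 3 groups lay between -0.06 and 0.13. Traf6, the ubiquitin ligase that miR-146a represses, read 154.6 in WT and 160.6 in KO Ly6Chigh and 124.0 and 153.3 in Ly6Clow, with log2 ratios of 0.05 and 0.31. Irak1, the kinase upstream of Traf6, read 1493.4 and 1410.1, then 1337.4 and 1423.7, with ratios of -0.08 and 0.09. Between the subsets, where the rule called 8.65% of all genes in WT and 8.78% in KO, 0 of the 7 other family genes and 0 of the 20 activators were called in either genotype. Of 17 negative regulators, Usp18, a protease that curbs interferon signalling, was called lower in Ly6Clow, 8.03-fold in WT (134.3 against 1077.8) and 7.19-fold in KO (182.2 against 1310.7).

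Genes switched on by NF-kB, also chosen with earlier results of these data known, were set beside the 9. In Ly6Chigh, 22 of 24 measured target genes were higher in KO, with a median log2 ratio of 0.42, against -0.012 over all measured genes. Some had low signals, such as Il6 (11.0 in WT and 12.4 in KO) and Ccl5 (27.3, not Present, and 44.4). The rule called Il1b (log2 1.42, signals of 2425.7 in KO and 906.1 in WT) and the chemokine gene Ccl2 (1.10, 722.7 and 337.8), where it called 0.163% of all genes higher. In Ly6Clow, 16 of 22 were higher with a median of 0.17, against -0.025 over all measured genes. The chemokine gene Ccl3 was called higher (1.13, 384.5 and 176.3), where 0.128% of all genes were. The 9 pathway genes had smaller medians (0.10 and 0.11) on the same arrays. Genes of the immediate early and heat shock response, which handling of cells can induce, had median ratios of KO over WT of 0.18 in Ly6Chigh (12 of 20 above 0) and 0.19 in Ly6Clow (15 of 20). They went both ways, and the immediate early gene Egr1 had ratios of -0.47 and -0.55. Of these, the chaperone genes Hspa1b (1.73) and Hspa1a (1.71) were called in Ly6Chigh and Hspa1a (1.09) in Ly6Clow. The part of handling in the KO values of Tnip1 and Bcl3 was not tested.

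**Figure D4:**
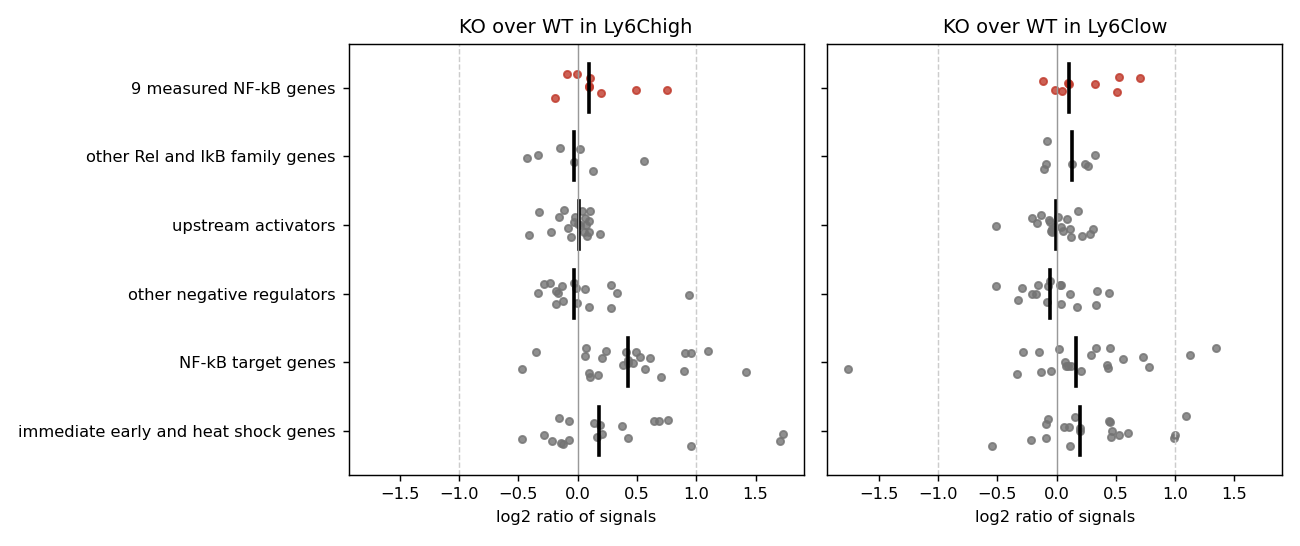
Log2 ratio of KO over WT for each measured gene (points, scattered vertically for visibility) of the NF-kB genes and of 5 related gene groups, in Ly6Chigh (left) and Ly6Clow (right). Black bars are group medians and dashed lines 2-fold. Target genes have the largest median in Ly6Chigh (0.42), and the NF-kB genes lie at 0.10 and 0.11.

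Between the subsets, target genes went both ways while 7 of the 9 NF-kB genes were higher in Ly6Clow in both genotypes. Of 23 target genes measured in WT, 4 were called higher in Ly6Clow and 5 in Ly6Chigh. In KO the counts were 3 and 6 of 24 genes. Over all genes the rule called 3.65% higher and 4.99% lower in Ly6Clow in WT, and 3.69% and 5.09% in KO. The median log2 ratio of the target genes was -0.32 in WT and -0.50 in KO. Cd83, a surface protein of activated antigen-presenting cells, was 21.1-fold higher in Ly6Clow in WT and 23.2-fold in KO. Ccl2 was at least 12.2-fold and at least 24.2-fold lower. The prostaglandin synthase gene Ptgs2 read 169.5 in Ly6Chigh and 6.9 in Ly6Clow in WT, and 316.4 and 17.5 in KO. The interferon-induced chemokine gene Cxcl10 read 248.5 and 37.5 in WT, and 349.4 and 29.7 in KO. No fold is given for these 2 genes, since the Ly6Clow signals of Ptgs2, and that of Cxcl10 in KO, lay under the level that 95% of Absent probe sets stayed below on those arrays (27.8 in WT and 29.9 in KO). Immediate early and heat shock genes had medians of 0.06 in WT and 0.15 in KO. Of 20, 2 were called higher and 3 lower in WT and 0 and 2 in KO, beside the same shares of all genes. Hspa1b (1.57) and Hsph1 (1.24) were higher in WT, and Atf3 was lower in both (-1.07 in WT and -1.12 in KO). Fosb read 154.4 in Ly6Chigh and 24.6 in Ly6Clow in WT, the latter under the same Absent level, and had a ratio of -2.34 in KO.

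The 3 genes with the widest range over the arrays were Tnip1 (1.61 on the log2 scale), Bcl3 (1.48) and Nfkbiz (1.02). Among 6223 genes Present with a signal of at least 100 on all 4 arrays, those with the closest log2 profile, by root mean square distance over the 4 arrays after centring, were sought for each. For Tnip1 they were Ccdc69 (distance 0.119), Abca1 (0.12) and Arrdc3 (0.127), and for Bcl3 Herc6 (0.085), C130026I21Rik (0.115) and Dock4 (0.128). For Nfkbiz they were Fyco1 (0.012), Scd2 (0.022) and Myo1c (0.024), at shorter distances. A profile of only 4 points says little about shared control, and these genes are given as descriptions.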

How the data were processed

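Per the file headers, the authors deposited signal intensities, converted from CEL files in the BioRetis database, with a detection p-value and detection call for each of 45101 probe sets from Affymetrix Console. Per the submitters' processing notes GCOS was used, and neither the signal algorithm nor a genome build is stated in the sources used here. The authors' deposited signed fold changes (used as a score) and change calls come from comparisons of 1 array with another.

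Probe sets with 1 gene symbol (34958) were used, those with several (932) or none (9211) were not named, and a gene was represented by its brightest probe set on average. Log2 ratios of signals had no offset. A call needed a 2-fold ratio and, on the brighter array, a Present call and a signal of 100 or more. Where the dimmer array was not Present, the fold is a lower bound against its own signal or the 95th percentile of that array's Absent probe sets, whichever was larger. limma 3.58.1 (R 4.3.3) fitted genotype and subset to log2 signals of genes Present on at least 1 array, with Benjamini-Hochberg adjustment. A separate test on simulated data, with independent noise on each array, checked the coefficients and the 2-fold rule but not limma's calls. The number of arrays limits the precision.

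The NF-kB genes and the gene groups were chosen with earlier results of these data known. Named genes were the 10 NF-kB genes, Traf6, Irak1, up to 4 called genes per group and comparison, and the 3 nearest profiles of the 3 widest-ranging genes. Alternatives were an offset of 32, median centring, quantile normalization, the mean of all probe sets, no signal minimum, 1.5-fold, the authors' change calls, a variance trend and a stricter Present filter.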

Additional observations from a re-analysis of the deposited data

Results flagged for a closer look

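Of the 9 NF-kB genes, 3 had KO ratios of opposite sign in the 2 subsets, and the differences were not tested. The log2 ratio of KO over WT was -0.088 in Ly6Chigh and 0.045 in Ly6Clow for Rel, -0.004 and 0.094 for Nfkbie, and 0.196 and -0.016 for Nfkbiz. The signs of the Nfkbie ratio in Ly6Chigh and of the Nfkbiz ratio in Ly6Clow turned with quantile normalization (to 0.014 and 0.051) and with probe sets averaged (to 0.005 and 0.04).

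Zc3h12a had subset ratios of opposite sign in the 2 genotypes, which was not tested either. The log2 ratio of Ly6Clow over Ly6Chigh was -0.251 in WT and 0.166 in KO, at signals of 92.0 to 131.3.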

How the results depend on the processing

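Of 306 recomputed values of the NF-kB genes, 273 stayed on their side of the rule or test, 32 came to pass it, 1 (Nfkbiz in WT, with quantile normalization) no longer passed and 0 called values reversed. The 1.5-fold rule, the variance trend, the stricter Present filter and no signal minimum left ratios and coefficients unchanged, so no sign could turn there. Elsewhere signs turned in 6, with recomputed sizes of 0.051 or less. The widest such move was Tnfaip3 between the subsets in WT, from 0.193 to -0.047 with the mean of all probe sets. No paired analysis was possible because each group had 1 array and no replicate numbers, beyond the limma model in which genotype and subset adjust for each other, and no array could be left out of a comparison.

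Counts of called genes are given as KO over WT in Ly6Chigh, in Ly6Clow, then Ly6Clow over Ly6Chigh in WT, in KO. They were 28, 20, 911 and 914, against 340, 323, 1655 and 1577 with no signal minimum, 262, 130, 2071 and 1956 at 1.5-fold, and 1603, 632, 4240 and 3968 by the authors' deposited change calls. With an offset of 32 the first 2 were 17 and 12, and with probe sets averaged per gene the second was 34. Of the 9 NF-kB genes 0, 0, 1 and 1 were called, against 1, 1, 4 and 4 at 1.5-fold and 3, 3, 5 and 7 by the authors' deposited calls, and with quantile normalization the third was 0.

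limma called 0 genes for genotype, 106 with the offset and 287 with the variance trend. For subset limma called 786, against 4317 with the offset, 4590 with the trend, 3352 when a Present call on all 4 arrays was required, and 0 with probe sets averaged, where 0 of the NF-kB genes passed. The causes of these shifts were not tested. Signals near 100, as for Zc3h12a, limit what a ratio can show.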

Other observations

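Nfkbid, which encodes another nuclear IkB protein (IkBNS) and was not among the 10 genes, was chosen here after its values were seen. Its signal was 247.8 in WT Ly6Chigh, 364.9 in KO Ly6Chigh, 450.8 in WT Ly6Clow and 530.5 in KO Ly6Clow. It was higher in Ly6Clow by 0.86 on the log2 scale in WT and 0.54 in KO, in the direction of Nfkbiz and opposite to Bcl3. The ratio of KO over WT was 0.56 in Ly6Chigh and 0.23 in Ly6Clow, with no call in any of the 4 comparisons.

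Nkiras1, which encodes a Ras-like protein that slows the breakdown of IkB proteins, was likewise chosen after its values were seen. It read 86.7 and 85.0 in Ly6Chigh (WT, then KO) and 146.8 and 136.4 in Ly6Clow, higher in Ly6Clow by 0.76 in WT and 0.68 in KO.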
